A study of Mus musculus with 6 samples.

Results

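The AP-1 family was examined as loci: the 10 genes Fos, Fosb, Fosl1, Fosl2, Jun, Junb, Jund, Atf3, Batf and Batf3, of 21938 protein-coding mouse genes. The genes were chosen by name and not by a rule on measured values, though earlier results of these data were known. The assay was single-cell ATAC-seq (10x Genomics), in which a transposase cuts open chromatin and each sequenced fragment gives a cut site at both ends. All 6 libraries came from dorsal olfactory epithelium of mice carrying Krt5CreER and Rosa26 LSL-YFP/LSL-YFP, so the marked cells are those in which Krt5-driven Cre was active, and their descendants. YFP-positive, propidium iodide-negative cells were sorted before nuclei were isolated. The 3 uninjured libraries are labelled control, and the 3 injured ones were collected 24 h after methimazole, a drug that destroys the olfactory epithelium above the basal cells. Mice of replicate 1 were 8 weeks old, those of replicate 2 were 6 weeks and those of replicate 3 were 6 to 7 weeks, in both groups. The titles call the replicates biological and, per the protocol in the labels, tissue of each animal was dissociated on its own; whether 1 library holds 1 animal is not stated.

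AP-1 is a dimer of basic leucine zipper proteins. Jun proteins (Jun, Junb, Jund) pair with one another or with Fos proteins (Fos, Fosb, Fosl1, Fosl2), while Atf3, Batf and Batf3 pair chiefly with Jun proteins. The dimers bind TGANTCA-like sites, many of them far from promoters, and several of the genes are immediate early genes that are transcribed within minutes of a stimulus. Horizontal basal cells, the labelled cell type, are the quiescent reserve stem cells of this epithelium and are activated when it is lost.

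Barcodes with at least 2000 fragments numbered 4476, between 420 and 1338 per library, and carried 14825320 to 44875242 cut sites per library. The 9 horizontal basal cell markers (Krt5, Krt14, Trp63 and others) summed to between 651 and 741 CPM (cut sites scaled to the library total) in uninjured and 561 to 634 in injured libraries over gene bodies. Later CPM also carry TMM factors, except those of marker lists and clusters. The 6 sustentacular cell markers, of the supporting cells that methimazole destroys, summed to 105 to 114 and to 59.1 to 65.3, and the 10 immune markers to 74.4 to 82.8 and 89.8 to 94.5. The 6 olfactory sensory neuron markers summed to 70.3 to 116 in uninjured libraries and to 57.3, 69.4 and 163 in injured replicates 1 to 3, so injured replicate 3 stood apart. The 4 respiratory markers summed to 129 in uninjured replicate 1, against 76.3 and 88.4 in the other uninjured libraries and 70.5 to 91.7 in the injured ones. The 4 glial markers summed to 42.6 to 48.1 and to 32.8 to 40.1, and the 6 precursor markers to 166 to 174 and 132 to 158. None of the markers of these lists was at 0 in any library. Replicate 3 of both groups shared 34 barcodes, against at most 4 for any other pair. A median of 97.3% of the fragments of the shallower copy were identical to fragments of the deeper one, and these copies made up 0.251% of the fragments of both libraries. Without shared barcodes Fosb and Junb kept their promoter calls given below (adjusted p = 0.00725 and 0.0219, edgeR). Here libraries were summed over barcodes, so fewer cells of a type and less signal per cell cannot be told apart.

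The sequences that carry the results come first. Open stretches of 500 bp, called tiles here, gained cut sites after injury near several members. They were 25 tiles, 2.31% of those tested there, beside 3.66% of all tested tiles. Of these 25 tiles, 11 held TGANTCA (44%), beside 61.3% of all tiles that rose. Of those 11, 7 are shown with 150 bases each (GRCm38), with TGANTCA in capitals on either strand, and lie outside annotated exons. The 2 touching Fosl1 tiles both carry the distance of the inner, nearer tile.
Jun, 50.5 kb downstream of the start, chr4:95001530-95001679, plus strand: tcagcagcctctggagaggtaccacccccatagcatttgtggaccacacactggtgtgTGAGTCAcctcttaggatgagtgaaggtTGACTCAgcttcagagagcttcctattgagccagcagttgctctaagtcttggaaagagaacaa
Jun, 16.5 kb downstream, chr4:95035667-95035816, plus strand: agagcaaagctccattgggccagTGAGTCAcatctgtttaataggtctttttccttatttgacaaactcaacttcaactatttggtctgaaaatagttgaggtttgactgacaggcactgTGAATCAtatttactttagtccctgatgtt
Fosl1, 17.3 kb upstream, outer tile, chr19:5429596-5429745, plus strand: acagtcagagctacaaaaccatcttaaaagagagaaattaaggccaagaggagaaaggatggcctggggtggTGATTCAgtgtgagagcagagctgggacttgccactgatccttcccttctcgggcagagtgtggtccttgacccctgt
Fosl1, 17.3 kb upstream, inner tile, chr19:5430001-5430150, plus strand: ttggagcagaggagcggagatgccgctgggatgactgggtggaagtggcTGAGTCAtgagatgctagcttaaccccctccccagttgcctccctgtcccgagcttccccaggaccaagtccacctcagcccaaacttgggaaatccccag
Fos, 45.9 kb downstream, chr12:85519679-85519828, plus strand: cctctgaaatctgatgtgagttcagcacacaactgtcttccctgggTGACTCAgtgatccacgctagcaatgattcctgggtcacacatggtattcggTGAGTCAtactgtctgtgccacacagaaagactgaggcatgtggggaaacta
Atf3, 4.2 kb upstream of the first start, chr1:191222116-191222265, plus strand: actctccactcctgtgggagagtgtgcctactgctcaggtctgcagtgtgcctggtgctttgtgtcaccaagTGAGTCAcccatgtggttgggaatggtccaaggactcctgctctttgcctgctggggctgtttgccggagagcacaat
Jund, 19.2 kb upstream, chr8:70679573-70679722, plus strand: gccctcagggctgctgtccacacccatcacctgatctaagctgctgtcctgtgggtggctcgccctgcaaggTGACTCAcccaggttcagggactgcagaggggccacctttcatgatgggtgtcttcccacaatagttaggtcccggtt
Tiles that lost cut sites rarely held these letters. The 1 exception among 35 (2.86%, beside 7.32% of all tiles that fell) lies upstream of Fosb, and 1 of its 2 matches is shown. The Fos tile below lost cut sites and held TGACGT, part of the CRE site that related factors bind, 3 times on either strand.
Fosb, 17.2 kb upstream, chr7:19327075-19327224, plus strand: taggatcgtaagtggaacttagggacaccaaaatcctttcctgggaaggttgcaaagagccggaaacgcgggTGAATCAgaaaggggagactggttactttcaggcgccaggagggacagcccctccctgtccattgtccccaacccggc
Fos, 18.6 kb upstream, chr12:85455345-85455494, plus strand: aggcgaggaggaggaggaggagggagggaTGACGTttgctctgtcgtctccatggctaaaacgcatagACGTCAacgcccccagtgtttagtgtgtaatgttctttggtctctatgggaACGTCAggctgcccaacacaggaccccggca
RefSeq promoter windows (GRCm38.p6) were matched for 9 of the 10 members, and 250 bases before the start were searched on both strands for the AP-1 letters TGANTCA, for the CRE letters TGACGT and for the CArG box of serum response factor. TGACGT was present at Fos, Atf3 and Batf, and neither TGANTCA nor a CArG box was found in these 250 bases at any of the 9. The search left out bases further from the start and sites that differ from these letters. It therefore does not show that the promoters lack such sites. Of all 32851 windows of that length, 6.47% held TGACGT, 6.75% held TGANTCA and 1.47% held a CArG box. The Fos and Atf3 windows are shown with TGACGT in capitals on either strand. The RefSeq start is not always the start used for the promoter window below: it lies at the second GENCODE start of Atf3, 1210 bp before the tested start of Jund, and 671 and 567 bp past those of Fosl2 and Batf3. The searched Jund bases therefore lie outside its tested window.
Fos, chr12:85473640-85473889, plus strand: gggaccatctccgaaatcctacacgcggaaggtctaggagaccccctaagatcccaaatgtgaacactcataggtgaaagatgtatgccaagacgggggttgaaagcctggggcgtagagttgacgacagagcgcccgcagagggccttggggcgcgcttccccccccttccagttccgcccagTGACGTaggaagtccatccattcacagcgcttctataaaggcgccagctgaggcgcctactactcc
Atf3, chr1:191183334-191183583, minus strand: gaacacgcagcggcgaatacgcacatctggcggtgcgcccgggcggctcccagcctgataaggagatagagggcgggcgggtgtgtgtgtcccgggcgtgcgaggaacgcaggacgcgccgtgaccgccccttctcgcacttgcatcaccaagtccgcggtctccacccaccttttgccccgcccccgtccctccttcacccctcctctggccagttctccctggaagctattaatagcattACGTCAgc

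At promoters, the question was which family members open or close after injury. No member promoter opened past the test, by edgeR, by DESeq2 or at an unadjusted p under 0.05 (0 of 10 each), and 2 of 10 closed by edgeR. Fosb and Junb, a Fos and a Jun protein with immediate early genes, fell to 0.703 and 0.767 times their uninjured level. Over 17163 promoters tested by edgeR's quasi-likelihood test, 3.92% passed a Benjamini-Hochberg adjusted p of 0.05, 2.21% higher and 1.71% lower. The count depended on the model: with the replicate number as a block 6 members closed, beside 5.94% of all promoters, and with DESeq2 4 closed, beside 2.77%. It also depended on the scaling. With total cut sites 6 members closed, beside 38.5% of all promoters lower and 2.43% higher, and with factors from 10 kb bins 8 closed, beside 57.4% lower and 1.61% higher. A promoter window reached 1 kb to each side of a gene's first (5′-most) start, so levels of different genes refer to windows of equal length.

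Of the Fos proteins, Fosb (chr7:19309051-19311051) stood at 41.0, 35.6 and 35.4 CPM in uninjured replicates 1 to 3 and at 24.5, 27.8 and 26.4 in injured replicates 1 to 3. The groups did not overlap. The log2 change was −0.51 (SE 0.087, adjusted p = 0.0076, edgeR), and it stayed past the threshold with each library left out in turn, with adjusted p up to 0.0479. Fos (chr12:85472890-85474890), the founding partner of Jun, stood at 98.0, 74.9 and 66.2 CPM and then at 59.9, 55.3 and 56.3. All injured libraries were lower, with uninjured replicate 1 far above the rest, and the log2 change of −0.47 (SE 0.12) did not pass the test (adjusted p = 0.0546). With the replicate block it was −0.46 and passed (adjusted p = 0.00504, edgeR). Without uninjured replicate 1, the library with the highest respiratory markers, it was −0.31 (adjusted p = 0.1, edgeR; the part of those markers was not tested), and without uninjured replicate 3 it was −0.59 and passed (adjusted p = 0.00522). Fosl2, a Fos protein lacking a strong activation domain, stood at 69.3, 63.1 and 69.9 CPM and then at 57.8, 60.1 and 57.9, a log2 change of −0.20 (SE 0.07, adjusted p = 0.114, or 0.0403 with the block). Fosl1, the other such protein, overlapped between groups at 27.7, 27.5 and 28.3 CPM against 33.8, 29.96 and 26.4 (log2 change 0.11, SE 0.095, adjusted p = 0.522).

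Of the Jun proteins, Junb (chr8:84977718-84979718) stood at 68.4, 55.9 and 56.5 CPM in uninjured and 45.4, 46.3 and 46.6 in injured replicates 1 to 3. The injured libraries lay within 1.2 CPM of one another and below every uninjured one. The log2 change of −0.38 (SE 0.083) passed the test (adjusted p = 0.0242). It no longer passed without uninjured replicate 1 (adjusted p = 0.0898), uninjured replicate 2 (0.051), injured replicate 1 (0.0908) or injured replicate 2 (0.0974), where only 0.745%, 0.865%, 0.751% and 0.568% of all promoters passed, nor without cluster 7 (0.0556), a group of barcodes described below. In these fits, in that order, the log2 changes were −0.29, −0.44, −0.36, −0.38 and −0.34. Jund, the Jun protein with steady expression in most cells, stood at 75.9, 69.9 and 71.5 CPM and then, without overlap, at 63.3, 62.1 and 62.6, but its log2 change of −0.21 (SE 0.067) did not pass (adjusted p = 0.0944, or 0.025 with the replicate block). Jun, the most open member and at the 99.98th percentile of all promoters, stood at 110.2, 93.7 and 90.4 CPM against 91.8, 85.4 and 82.9. Its groups overlapped (log2 change −0.17, SE 0.082, adjusted p = 0.231), while each injured library lay below the uninjured one of the same number and the block gave an adjusted p of 0.0453 (edgeR).

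The remaining members were less open at this window. Batf and Batf3, known mainly from lymphocytes and dendritic cells, stood at 2.73 ± 1.71 (SD, n = 3) against 2.68 ± 1.26 CPM and at 9.42 ± 1.94 against 8.85 ± 0.966 CPM, with overlapping groups (adjusted p = 0.972 and 0.821, edgeR). Atf3, a stress-induced gene, stood at 1.17 ± 0.29 and 1.73 ± 0.611 CPM at its 5′-most start (adjusted p = 0.439). Its second annotated start, chr1:191183340, was the open one, with 70.6, 60.6 and 58.2 CPM in uninjured and 51.2, 49.2 and 53.2 in injured libraries. All injured libraries were lower there, and the log2 change of −0.30 (SE 0.083) lay just outside the threshold (adjusted p = 0.0522, edgeR over 40169 starts).

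**Figure D1:**
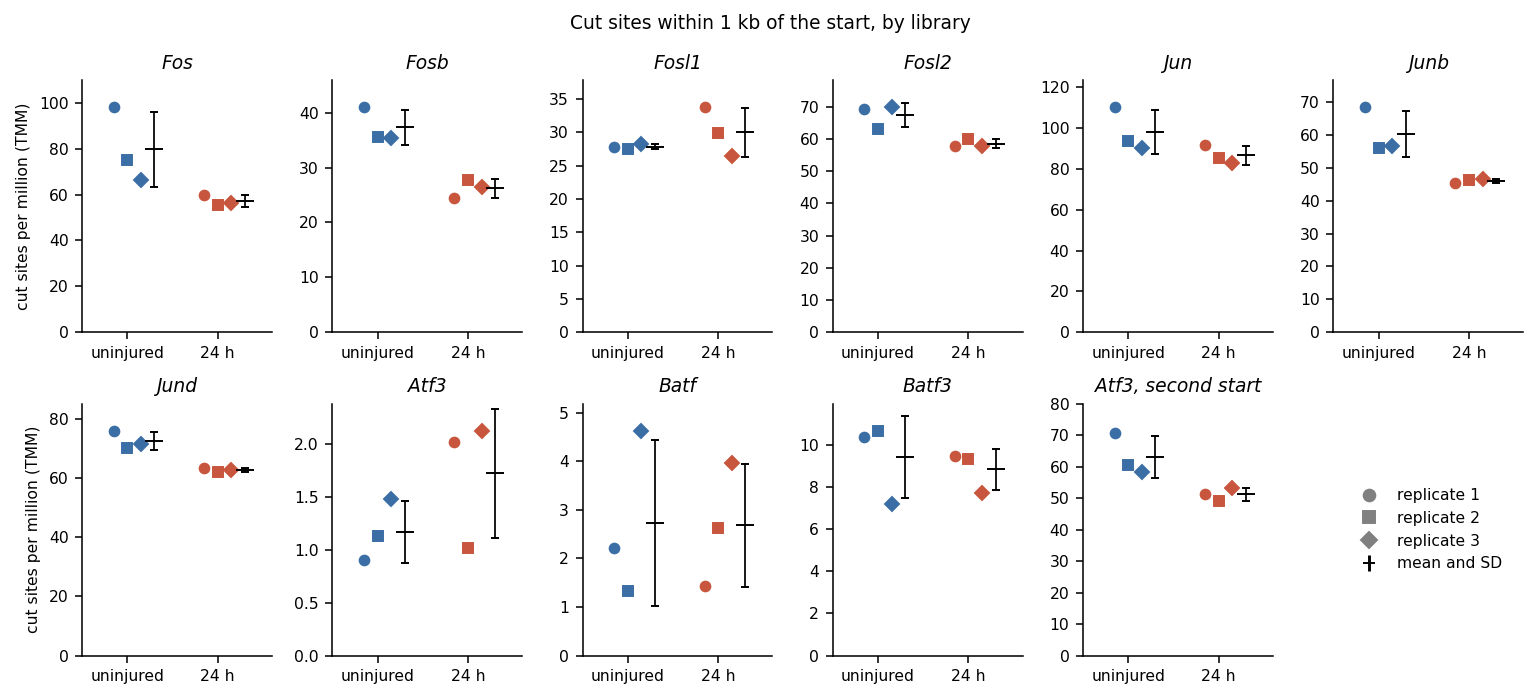
CPM within 1 kb of the start (vertical axis, from 0) in the 3 uninjured and 3 injured libraries, for the 5′-most start of each member and the second start of Atf3; symbols are replicates and bars are mean and SD. Fosb and Junb show injured libraries clear of the uninjured ones, while Fosl1, Jun, Batf, Batf3 and the first start of Atf3 overlap.

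Groups that did not overlap, with injured libraries below, were found at Fos, Fosb, Fosl2, Junb and Jund, 5 of 10 members, beside 14.3% of all promoters. When every annotated start was tested separately, 5 of 16 tested member starts passed the threshold, all lower, beside 5.73% of all starts, or 2.97% lower. They were the first starts of Fos (log2 change −0.54, adjusted p = 0.0283), Fosb (−0.58, 0.00351), Fosl2 (−0.27, 0.0449), Junb (−0.45, 0.0108) and Jund (−0.27, 0.0374) by edgeR. With the replicate block 9 of the 16 were called, all lower, beside 4.31% of all starts higher and 7.37% lower. The first start of Jun was among the 9 (log2 change −0.24, adjusted p = 0.0137, against 0.109 without the block, edgeR). Without the block, Fosl2 and Jund lost the call with any 1 library left out (adjusted p from 0.0681 and 0.0504 upward, edgeR). Their log2 changes then ran from −0.32 to −0.25 and from −0.31 to −0.25. Fos lost it without uninjured replicate 1 (0.0511), uninjured replicate 2 (0.0632), injured replicate 1 (0.0735) or injured replicate 2 (0.121), and Junb without injured replicate 2 (0.0563). No member start rose past the test. These windows are no separate evidence: for all 10 members the first-start window held the same cut sites as the promoter window. The scaling factors of the start fit moved their log2 changes by −0.068 to −0.063 against the promoter fit. That fit also covered 40169 starts, against 17163 promoters, so the adjustment differed too. What gave the added calls at Fos, Fosl2 and Jund was not tested.

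Of the 10 members, 5 lay above the 95th percentile of promoter level and 3 below the 50th, and the most open promoters as a class shifted down slightly. Atf3 is counted here at its nearly closed first start. Its second start had means of 63.1 CPM in uninjured and 51.2 CPM in injured libraries. Among the 859 promoters above the 95th percentile of level, the median log2 change was −0.12, 89.2% were negative and 6.4% were called lower. Within that class 1 promoter changed by more than Fos in the negative direction, 8 by more than Junb, and 195, 207 and 278 by more than Jund, Fosl2 and Jun. Between the 80th and 95th percentiles, where the median was −0.10, 10 of 2574 promoters were more negative than Fosb. Promoters below the 50th percentile had a median of 0.21. Fos, Fosb and Junb lay at the negative edge of promoters of their level, and Jun, Jund and Fosl2 lay within it.

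**Figure D2:**
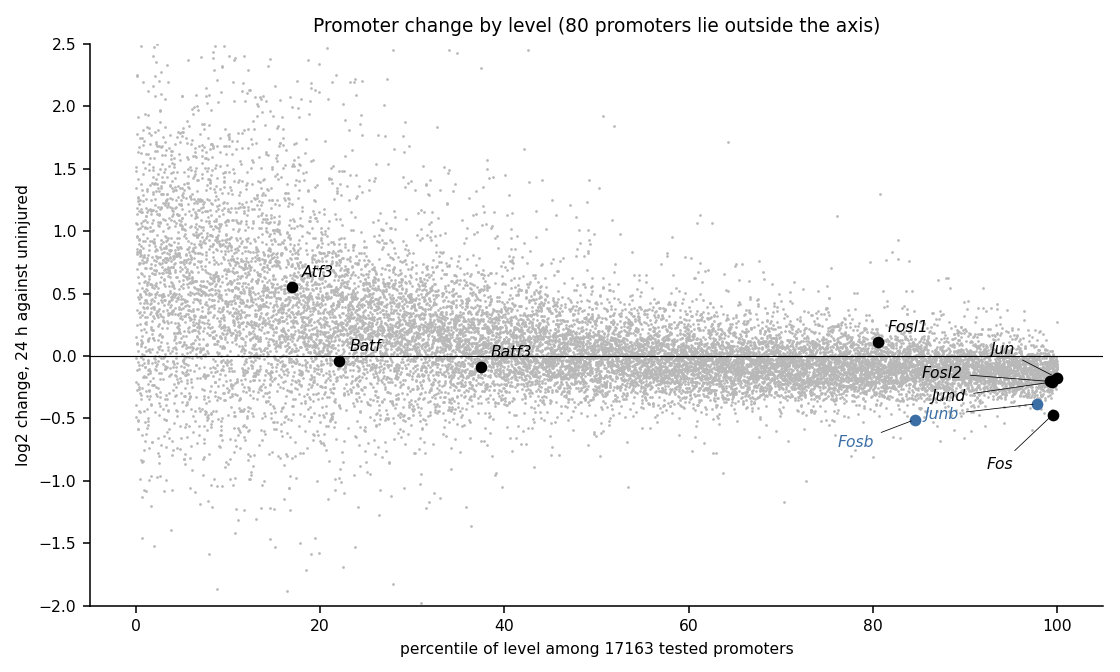
Log2 change of every tested promoter (vertical axis) against its percentile of level (horizontal axis), in grey. The 10 members are marked at their first start, with those called lower in blue, and 80 promoters lie outside the axis. Fos, Fosb and Junb sit at the lower edge of the cloud, and Fosl1 sits above 0.

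The promoter window was also split at the start. In the 1 kb downstream, on the transcribed side, the log2 change was −0.77 at Fosb (adjusted p = 0.0337), −0.49 at Junb (0.027) and −0.66 at Fos (0.143). In the 1 kb upstream it was −0.33 (0.0719), −0.25 (0.156) and −0.23 (0.167), by the same edgeR test. Of the 10 members, 7 had the more negative value downstream. Jund went the other way (−0.29 upstream, adjusted p = 0.0898, and −0.023 downstream, 0.937), as did Atf3 (−0.28 and 0.94, 0.86 and 0.231) and Fosl1. The difference between the sides was not tested. Over whole gene bodies, 2 of 10 members were called, both lower: Junb (log2 change −0.68, adjusted p = 0.0448, edgeR) and Batf (−0.58, 0.039). Of all genes 3.84% were called, 2.65% higher and 1.19% lower. These windows were added after the first results were seen.

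Whole loci, the gene body with 50 kb on each side, gave 4 calls among the members, all lower, beside 11.3% of all loci, or 5.12% higher and 6.21% lower. With factors from 10 kb bins 2.32% of all loci were called higher and 43.4% lower. With the replicate block 7 member loci were called, all lower, beside 11.9% of all loci; the added ones were Fos (log2 change −0.36, adjusted p = 0.00703, against 0.0752 without the block), Fosb (−0.26, 0.0229 against 0.123) and Jun (−0.21, 0.0352 against 0.166, edgeR). Junb fell from 569, 467 and 517 CPM to 363, 359 and 425 (log2 change −0.44, adjusted p = 0.023, edgeR). Jund fell from 317, 303 and 302 CPM to 243, 248 and 250.1 (−0.31, 0.0178). Batf fell from 124, 119 and 98.9 CPM to 75.4, 75.1 and 88.0 (−0.52, 0.0213), and Fosl1 fell from 413, 342 and 388 CPM to 319, 290 and 324 (−0.29, 0.0488). Batf3 had injured libraries above uninjured ones, at 76.4, 67.3 and 68.4 against 62.3, 61.2 and 62.2 CPM, but did not pass the test (0.19, 0.195). Each of these 4 calls was lost when injured replicate 1, injured replicate 2 or uninjured replicate 1 was left out (adjusted p from 0.0799 to 0.186, edgeR). In those fits only 0.0418%, 0.0% and 0.0278% of all loci were called. The log2 changes were then −0.40, −0.38 and −0.36 at Junb, −0.30, −0.30 and −0.29 at Jund, −0.48, −0.47 and −0.46 at Batf and −0.31, −0.23 and −0.23 at Fosl1. The Batf call was also lost without uninjured replicate 2 (adjusted p = 0.063) and with 20 kb on each side (0.0678). The Fosl1 call was also lost without uninjured replicate 3 (0.09), in clusters 1, 2, 3 and 7 alone (0.0678), without cluster 7 (0.0685), without the deepest 5% of barcodes (log2 change −0.21, 0.165) and with 20 kb on each side (−0.061, 0.641). With 20 kb on each side the Fos locus was called (−0.52, adjusted p = 0.0454). The windows hold other genes. In that of Fosl1, 94 of 116 tested 500 bp tiles lay nearer to another start, among them all 6 that fell, and none of the 19 in the Fosl1 promoter or gene body fell. The windows of Atf3 and Batf3 overlap each other, and Batf has its relative Jdp2 at the edge.

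Within the loci, tiles moved both ways. The test covered tiles whose mean over the 6 libraries reached 5 times the median tile, a floor of 0.23 CPM before TMM factors. The groups were not used, but a tile nearly closed in uninjured libraries could reach the floor through the injured ones alone. The size and rank of such a gain are partly set by the filter. The Fos tile 45.9 kb downstream, the Fosb tile 33.8 kb downstream and 2 Jun tiles are such cases. Of 1081 tested tiles at the 10 loci, 25 rose (2.31%, beside 3.66% of all 514026 tiles) and 35 fell (3.24%, beside 1.17%). The median log2 change was −0.26 at the members and −0.02 over all tiles. With scaling by total cut sites the split was 23 higher and 54 lower, beside 3.38% and 1.66% of all tiles. With factors from 10 kb bins it was 11 and 93, beside 2.45% and 3.3%, and with DESeq2 33 and 24, beside 5.09% and 1.39%. The split also followed level: of 201 member tiles at 5 CPM or more, 2 rose (0.995%, beside 5.25% of all tiles of that level) and 30 fell (14.9%, beside 7.33%). Of 880 below 5 CPM, 23 rose (2.61%, beside 3.55%) and 5 fell (0.568%, beside 0.771%). The counts at the members and over all tiles both depended on single libraries. Omitting uninjured replicate 1 left 11 higher and 2 lower member tiles, beside 1.63% and 0.138% of all tiles, and omitting uninjured replicate 2 left 9 and 7, beside 1.3% and 0.168%. With injured replicate 1 omitted they numbered 10 and 24, beside 1.26% and 0.584%, and with injured replicate 2 omitted 8 and 3, beside 0.809% and 0.114%. With injured replicate 3 omitted they numbered 44 and 38, beside 6.69% and 1.66%. None of the 60 called tiles changed sign in these omissions. That is no separate support, since the groups did not overlap in any called stretch.

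None of the 25 higher tiles lay in a member's promoter or gene body, where 14 of 199 tested tiles fell (7.04%). Of all tiles in a protein-coding promoter or gene body, 2.89% rose and 1.15% fell. Level matters here as well: at 20 CPM or more, 7 of 21 member tiles fell (33.3%), beside 19.5% of all tiles of that level, of which 0.217% rose. In the flanks, 13 of 393 tiles with the member as the nearest start rose (3.31%) and 8 fell (2.04%), and 12 (2.45%) and 13 (2.66%) of 489 nearer to another gene. Outside protein-coding promoters and gene bodies, 5.07% of all tiles rose and 1.22% fell. That set leaves out every protein-coding gene, while the member flanks hold promoters and bodies of other genes, so these are unlike sets. Over all tested tiles 3.66% rose and 1.17% fell. By member, the higher and lower tiles numbered 7 and 0 at Jun, 5 and 4 at Fos, 5 and 5 at Fosb, 5 and 6 at Fosl1, 2 and 1 at Atf3, 1 and 3 at Jund, 0 and 12 at Junb, 0 and 3 at Batf and 0 and 1 at Fosl2. Batf3 had 1 higher tile, which it shares with Atf3.

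**Figure D3:**
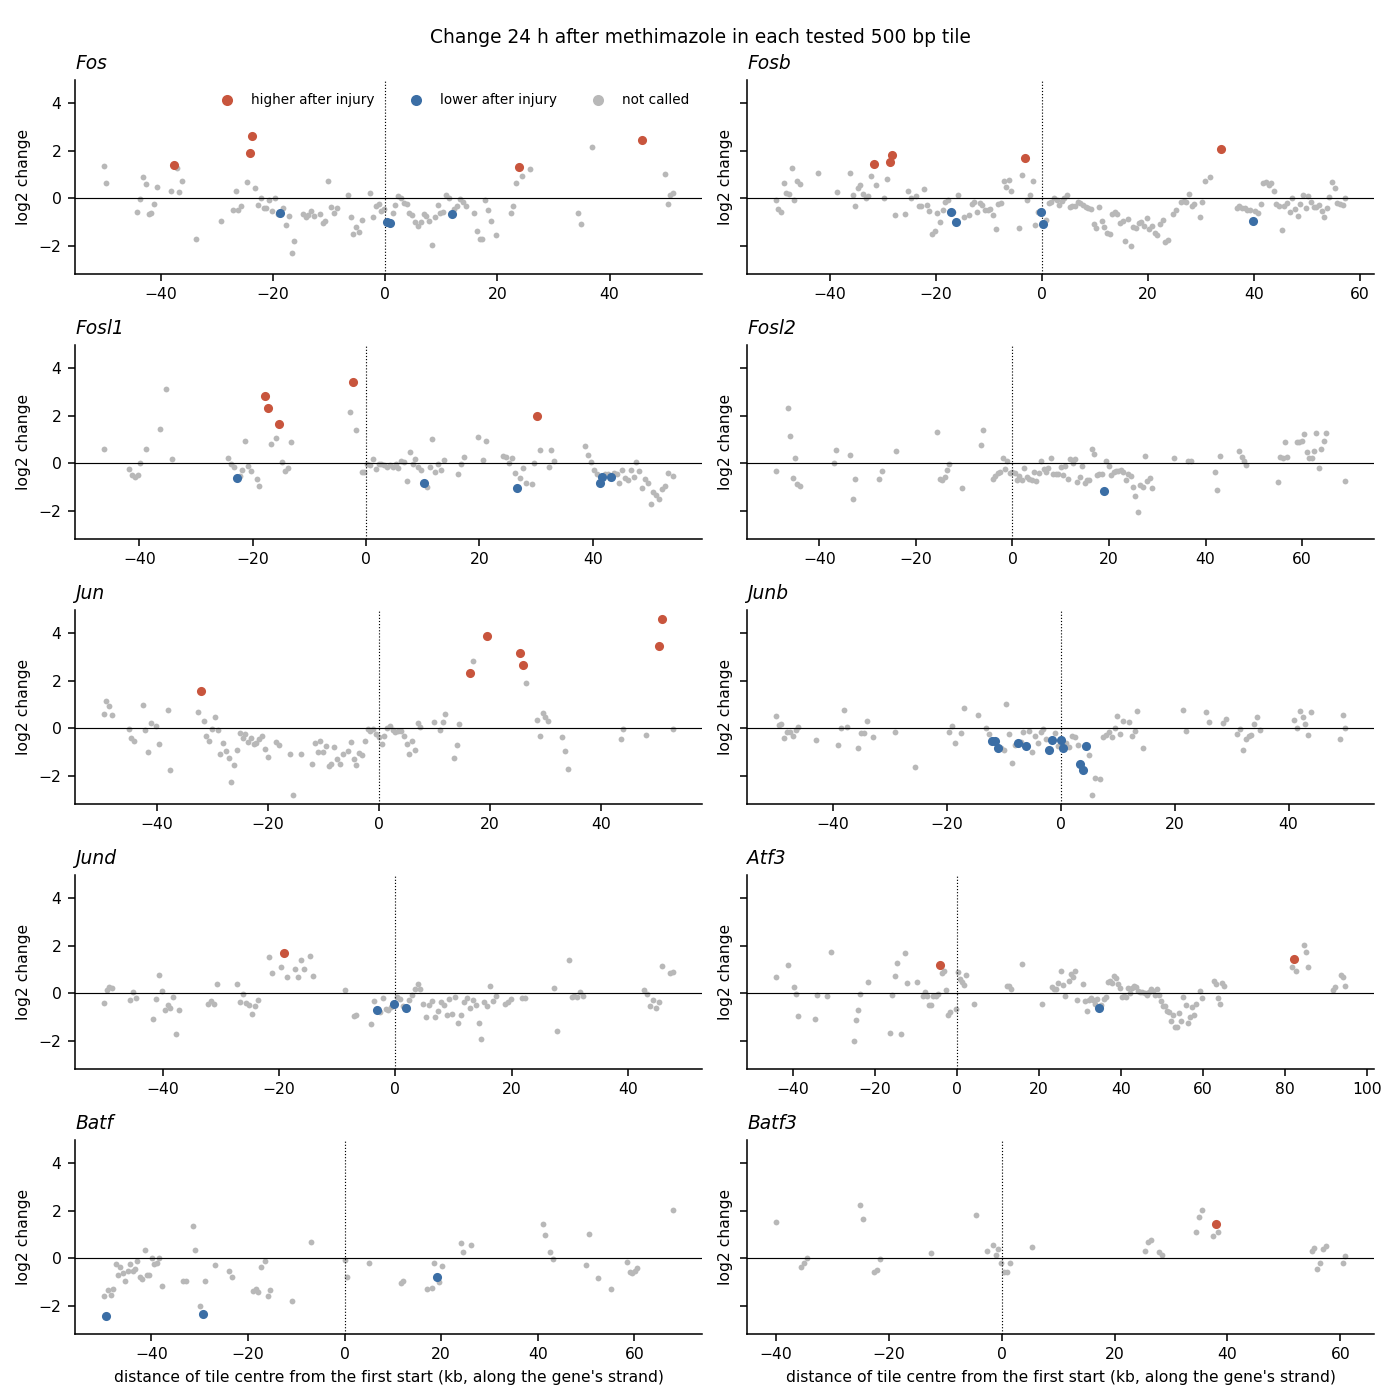
Log2 change (vertical axis) of each tested 500 bp tile against its distance from the member's first start in kb along the gene's strand (horizontal axis), 1 panel per member; red tiles were called higher, blue lower and grey neither. Red tiles lie outside the member promoters and gene bodies, the nearest 2.3 kb upstream of the Fosl1 start. At Junb 12 blue tiles lie over the start and on both sides of it, with no red tile in the window.

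On the log2 scale the largest gains lay at Jun, some of them over few uninjured cut sites. The 2 largest reached the floor for testing only through the injured libraries. Their size and rank are therefore partly set by the filter. The 2 touching tiles at chr4:95001001-95002000, beyond the 3′ end of Jun and nearest to the start of Mysm1, together stood at 0.386, 0.481 and 0.639 CPM in uninjured and 9.01, 6.53 and 2.87 in injured libraries. Injured replicate 3 was the lowest of its group and still above all uninjured libraries. The outer tile held 3 cut sites in all uninjured libraries and 94 in the injured ones, a ratio of 25.3 with an exact 95% interval of 8.39 to 125, which covers counting error only. Another pair, chr4:95026001-95027000, rose from 1.48, 2.04 and 0.822 CPM to 16.0, 9.01 and 5.26, with Jun as the nearest start. Single tiles 16.5 kb downstream and 32.0 kb upstream rose by log2 changes of 2.32 and 1.55. The last stretch, 19.5 kb downstream, held 3 uninjured and 58 injured cut sites (ratio 15.6, interval 5.08 to 77.8). This tile and the outer tile of the first pair are those 2 largest gains, and neither interval allows for the filter. The most open Jun tile outside the promoter, 3.5 kb downstream, did not pass the test (log2 change −0.10, adjusted p = 0.894).

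Fosl1 and Fos also gained openings outside the promoter and gene body. At Fosl1, the tile chr19:5445001-5445500, 2.3 kb upstream, rose from 0.129, 0.691 and 0.213 CPM to 4.87, 4.51 and 2.41 (log2 change 3.39, SE 0.516, adjusted p = 0.00438, edgeR). It was called with each library left out in turn, while the Fosl1 promoter beside it was not called. The pair at chr19:5429501-5430500, shown above, rose from 1.54, 2.64 and 2.01 CPM to 17.3, 12.6 and 6.49 and lies nearest to AI837181. At Fos, the intergenic pair chr12:85449501-85450500, 23.6 kb upstream, rose from 1.87, 1.17 and 2.59 CPM to 14.3, 7.4 and 6.88. Its inner tile had a log2 change of 2.62 (SE 0.384, adjusted p = 0.00375) and was also called in every such omission. In each of these stretches injured replicate 3 was the lowest injured library and lay above all uninjured ones. That library, with the highest sensory neuron markers, held 149 of its 746 barcodes in cluster 1 of the grouping described below, against 992 of 1338 in injured replicate 1 and 248 of 420 in injured replicate 2. It also held 105 and 97 in clusters 4 and 6, where the sensory neuron list had the highest level of the marker lists. The part of this difference in the gains was not tested.

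Gains at Fosb, Atf3 and Jund were smaller on the log2 scale. The largest at Fosb, chr7:19276001-19276500, rose from 0.193, 0.21 and 0.244 CPM to 0.667, 1.2 and 0.949 (log2 change 2.07, adjusted p = 0.0384, edgeR), and is nearest to Ppm1n. Its uninjured mean lay below the floor for testing, so its rank is partly set by the filter. A Fosb tile 3.2 kb upstream of the start rose from 0.837, 0.962 and 0.852 CPM to 4.22, 2.9 and 1.56. Atf3 had a gain 4.2 kb upstream of its first start, from 6.05, 6.94 and 5.66 CPM to 18.004, 14.99 and 9.7. The tile that Atf3 shares with Batf3, chr1:191135501-191136000, rose from 1.87, 1.62 and 1.43 CPM to 6.47, 3.77 and 2.87 (log2 change 1.43, adjusted p = 0.03). At Jund, chr8:70679501-70680000 rose from 1.42, 0.721 and 0.7 CPM to 3.41, 2.94 and 2.41 (1.67, 0.0236).

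**Figure D4:**
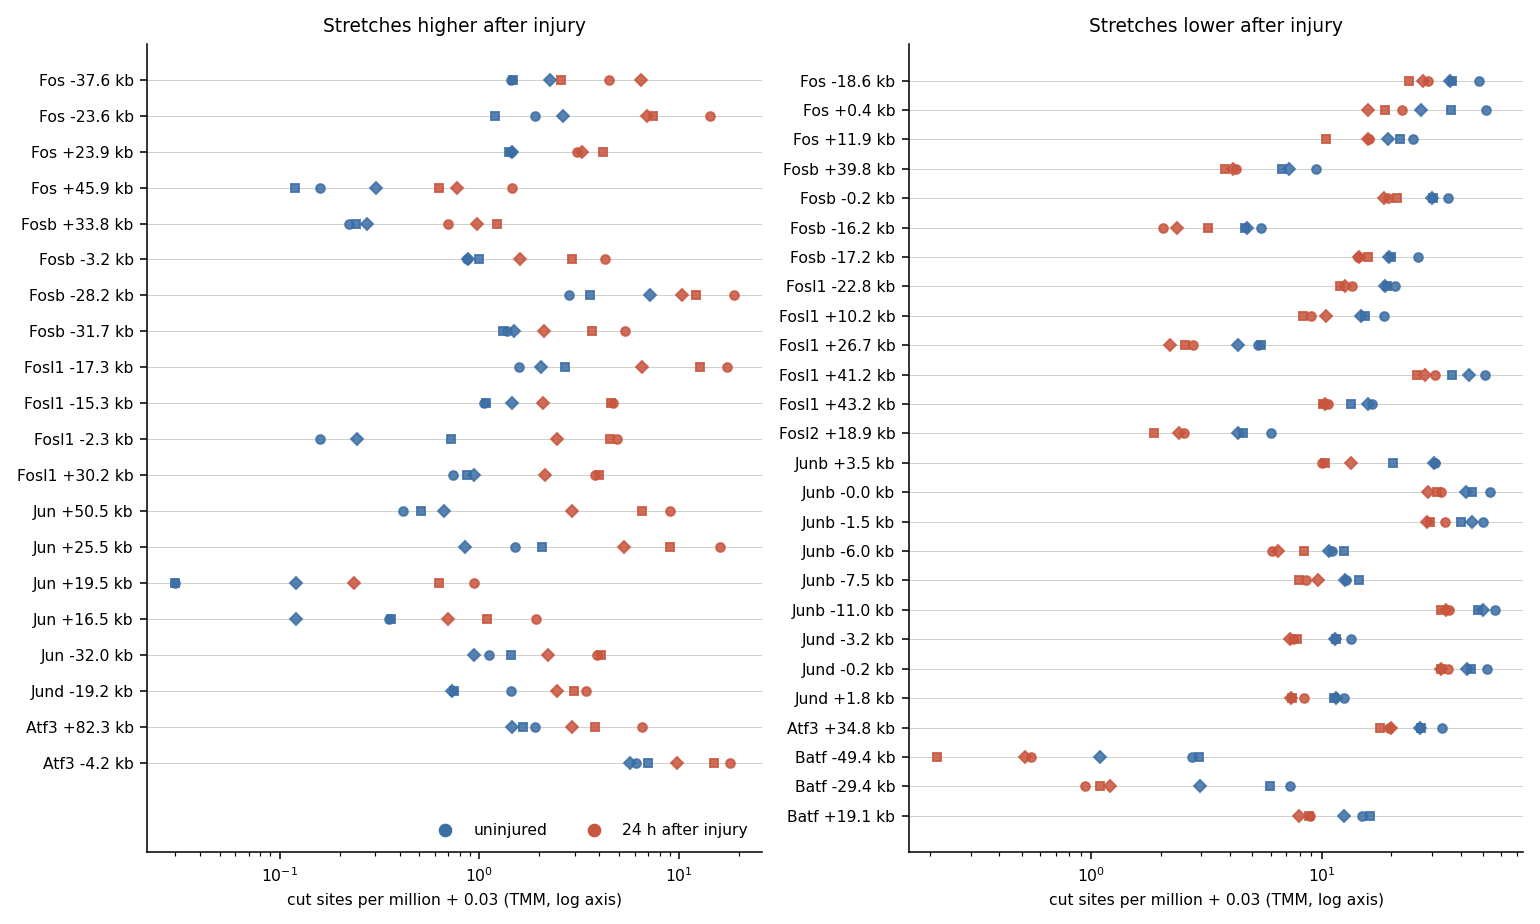
CPM plus 0.03 (horizontal axis, log scale) in each library for every stretch called higher (left) or lower (right), named by member and distance from its first start; blue is uninjured, red is injured and symbols are replicates as in the promoter plot. In every stretch the injured libraries lie clear of the uninjured ones, and most lower stretches start at higher levels than the higher ones.

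Losses were broadest at Junb. The 3 tiles chr8:84974001-84975500, at the 3′ end of Junb where it meets Prdx2, fell from 30.9, 20.2 and 30.6 CPM to 10.0, 10.3 and 13.3. The first of them by position overlaps coding exon of Prdx2, and its Junb exon is annotated as neither coding nor UTR. The middle tile had the largest loss at the locus (log2 change −1.71, SE 0.244, adjusted p = 0.00334) and was called in every omission of a library. Stretches over the Junb start and 1.5 kb upstream fell from 53.8, 44.6 and 42.3 CPM to 32.9, 31.5 and 28.8, and from 50.2, 40.2 and 44.7 CPM to 34.2, 29.3 and 28.6. The other 5 lower tiles made 3 stretches centred 6 to 11 kb upstream, nearest to Hook2. At Fos, the exonic tiles chr12:85474001-85475000 fell from 51.4, 36.4 and 26.9 CPM to 22.3, 18.7 and 15.9, and the intergenic tile with 3 TGACGT fell from 48.2, 36.7 and 35.8 CPM to 28.8, 23.9 and 27.3 (log2 change −0.59, adjusted p = 0.0217). At Fosb, the pair over the start fell from 35.2, 30.2 and 30.1 CPM to 19.4, 21.2 and 18.6.

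The largest losses on the log2 scale were 2 tiles in the Batf window, of 61 tested there outside the promoter and gene body. The intergenic tile chr12:85657001-85657500, 29.4 kb upstream, fell from 7.21, 5.92 and 2.92 CPM to 0.914, 1.06 and 1.18 (log2 change −2.33, SE 0.35, adjusted p = 0.00408). A tile in an intron of Jdp2, 49.4 kb upstream, fell from 2.7, 2.91 and 1.07 CPM to 0.519, 0.184 and 0.487 (−2.42, 0.0185). The intronic Batf tile 19.1 kb downstream fell from 14.9, 16.1 and 12.4 CPM to 8.84, 8.74 and 7.93 (−0.77, 0.0132). The other largest losses were at Fosl2 (3′ exon, 5.99, 4.54 and 4.29 CPM to 2.49, 1.84 and 2.36), Jund (3.2 kb upstream, 13.4, 11.5 and 11.3 to 7.46, 7.77 and 7.26), Fosl1 (exon of Efemp2, 5.28, 5.41 and 4.29 to 2.74, 2.53 and 2.15) and Atf3 (second start, 33.2, 27.0 and 26.5 to 19.5, 17.8 and 19.98). Injured libraries lay below uninjured ones in each. Among the most open tiles outside each promoter, those of Fosl1 (log2 change −0.55, adjusted p = 0.0355, edgeR) and Junb (−0.47, 0.0408) also fell, while those of Fosb (−0.32, 0.191), Jund (−0.39, 0.0706) and Batf3 (−0.47, 0.235) did not pass. The Fosl2 one stood at 4.31, 5.05 and 9.8 CPM against 13.4, 11.5 and 11.1, with injured libraries above, and did not pass either (0.90, 0.07).

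TGANTCA was found in 44% of the higher tiles at the members, 2.86% of the lower ones and 15.5% of those not called. Over all tested tiles the shares were 61.3%, 7.32% and 18.4%. TGACGT, which can share at most 1 base with a TGANTCA match, was in 22.9% of the lower member tiles and 7.7% of all lower tiles. It was also in 16% of the higher member tiles (4 of 25), 6.28% of all higher tiles and 6.46% of uncalled member tiles. A CArG box was in 11.4% of the lower and 4% of the higher member tiles, and in 4.03% of all lower tiles. Lower member tiles had a median GC content of 56.8% against 48.4% for all lower tiles. As a share of cut sites in tested member tiles, tiles with TGANTCA took 15.61%, 16.03% and 15.4% in uninjured and 19.9%, 20% and 17.37% in injured libraries. The groups did not overlap, with a difference of 3.41 percentage points (exact two-sided permutation p = 0.1, the smallest that 3 against 3 allows). Over all tested tiles the share went from 16.0% ± 0.256 to 22.7% ± 3.04 (SD, n = 3).

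Barcodes fell into 9 clusters. In 4 of them (1, 2, 3 and 7) the median horizontal basal cell marker lay above its level over all barcodes, a cut set after the clusters were seen. None of these markers was among the 10 leading genes of any of the 4. The list with the highest level was the horizontal basal cell one in clusters 2 and 3. It was the endothelial one in cluster 1 and the respiratory one in cluster 7, so the clusters are called by number. Cluster 1 held 1389 injured barcodes of 1397, cluster 2 held 1022 uninjured of 1036, cluster 3 held 352 uninjured and 629 injured, and 167 of 186 in cluster 7 came from uninjured replicate 3. In these 4 clusters alone, Fos (log2 change −0.51, adjusted p = 0.0156, edgeR), Fosb (−0.58, 0.002) and Junb (−0.40, 0.032) were called lower. Of all promoters 7.1% were called there, 4.53% higher and 2.57% lower. In the same barcodes 36 tiles rose and 60 fell, beside 5.75% and 1.75% of all tiles. Of the 60 tiles called over all barcodes, 59 were called the same way there and 59 without shared barcodes. These sets kept 138790572 and 182808212 of the 183475100 cut sites, so they are largely the same data. CPM of a cluster are scaled to the cut sites of that cluster, without TMM factors. The Batf tile 29.4 kb upstream stood at 9.74 CPM in cluster 2, 0.924 in cluster 1 and 0.646 in cluster 5, whose leading gene is the sustentacular marker Cyp2g1. The inner tile of the first Jun pair stood at 8.66 CPM in cluster 1 against 0.574 in cluster 2. The Fos tile 37.6 kb upstream stood at 18.4 CPM in cluster 6, which has the sensory neuron markers Omp, Rtp1 and Gng13 among its leading genes, and at 3.93 in cluster 1. Cluster 6 held 59 uninjured and 130 injured barcodes. The part of that cluster in the gain was not tested.

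Cluster 3, which both groups share, had Bpifa1, Depp1, Crygf and Reg3g first among its leading genes. Whether its cells match those of clusters 1 and 2 was not tested. In cluster 3 no member promoter was called by edgeR, beside 0.0291% of all promoters, and 0 of 10 had an unadjusted p under 0.05. Fosb stood there at 57.9, 40.6 and 43.2 CPM in uninjured and 23.2, 50.4 and 28.1 in injured libraries, which overlap (log2 change −0.31, adjusted p = 0.785, edgeR). These CPM lack TMM factors and are not on the scale of the promoter values over all barcodes. Of the 60 tiles called over all barcodes, 1 was called in cluster 3, beside 0.205% of all tiles higher and 0.0341% lower there. It was a Fosb tile 28.7 kb upstream (log2 change 1.35, adjusted p = 0.0319, edgeR). Of the 60, 53 kept their sign. The 7 lower tiles of cluster 3 were not among those 60. Only 129 to 377 Fosb promoter cut sites per uninjured library lay in this cluster, against 683 to 1258 over all barcodes.

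Genes that work with AP-1 were read from the same promoter fit, in lists chosen with earlier results of these data known. Beside each count stand the 2.21% of all promoters called higher and the 1.71% called lower, and the 50.4% with a positive log2 change. Of 14 immediate early genes, 0 rose and 2 fell (14.3%), and none of the 14 had a positive log2 change: Nr4a1, a nuclear receptor, went from 28.9 ± 1.06 to 18.01 ± 1.1 CPM (SD, n = 3), and Egr1, a zinc finger factor, from 76.7 ± 9.84 to 56.6 ± 1.02. The list median was −0.25, beside 0.003 over all promoters. The level classes above apply here too: 5 of the 14 lay between the 80th and 95th percentiles of level and 3 above, where the medians were −0.10 and −0.12. Of 15 tested kinases, phosphatases and ligases that act on AP-1, Map2k4 and Map3k1, both upstream of Jun kinase, fell (log2 change −0.42 and −0.39; 13.3%) and 0 rose. Of these 15, 10 lay above the 80th percentile. Of 11 relatives, Jdp2, a repressor that binds AP-1 sites, fell (−0.41, adjusted p = 0.041). Of 16 tested textbook AP-1 targets, 5 rose (31.2%) and 0 fell, with a median of 0.69. Of the 16, 11 lay below the 50th percentile of level, where the median of all promoters was 0.21 and 3.41% were called higher. Plaur, the urokinase receptor, went from 9.48 ± 2.38 to 31.5 ± 7.26 CPM, Ereg, a growth factor, from 3.61 ± 1.52 to 9.02 ± 1.97, and Ivl, a component of the cornified envelope, from 1.85 ± 0.595 to 4.54 ± 1.14. The other higher ones were Cd44, a hyaluronan receptor, from 11.5 ± 1.121 to 19.2 ± 3.42 CPM, and Plau, the urokinase, from 9.02 ± 0.364 to 14.1 ± 2.8. All injured libraries lay above the uninjured ones at these 5 promoters.

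The promoters whose level across the 6 libraries was most like that of Fosb, by Pearson's r of log2 CPM, were Spindoc (0.995), Agrp (0.994) and Ogfr (0.994). Of these, Agrp was called lower (log2 change −0.34, adjusted p = 0.041), and Spindoc and Ogfr were not (−0.24 and −0.30, both adjusted p = 0.128).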

How the data were processed

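Fragments of 6 libraries were used. The deposited fragment files hold 1 line per fragment with its ends, its barcode and a count of reads, per the values. Cell Ranger 2.0.0 and mm10 are named in the submitters' processing notes, and the aligner is not given in the sources used here. The deposited peak matrices were not used. Both fragment ends were counted as cut sites over barcodes with at least 2000 fragments and summed per library, since cells are not replicates. Doublets were not removed. Promoters, starts, tiles and loci (GRCm38, GENCODE M21) were each fitted over the whole genome with edgeR 4.0.16 in R 4.3.3 (quasi-likelihood, robust, TMM, total cut sites as library size). Benjamini-Hochberg adjustment was used with a threshold of 0.05. CPM uses total cut sites and TMM factors, except in marker lists and clusters, where TMM factors were left out. DESeq2 1.42.0 was an alternative. Annotated starts within 500 bp were joined. Barcodes were clustered by Leiden (leidenalg 0.10.2). The fits were tested on simulated data with few changed features. Most added changes were recovered at promoters and loci, fewer at starts and few at tiles. Every added change was larger than any at a member promoter in the main fit. Recovery of changes as small as those was therefore not tested. A promoter, start, tile or locus that did not pass is not shown to be unchanged. The members, lists and rules were chosen with earlier results of these data known. Named are all 10 members; per locus the called tile that moved most upward, the one that moved most downward and the most open tile outside the promoter, with touching called tiles as 1 stretch; up to 3 called promoters per related list; and the 3 promoters most like the member promoter of smallest p. All called textbook AP-1 targets are named, past that limit of 3. Other tiles are named as examples chosen after their values were seen. Nothing in the labels says that equal replicate numbers share a day or litter. P-values measure the spread between these libraries.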

Additional observations from a re-analysis of the deposited data

How the results depend on the processing

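The direction of Fosb, Fos and Junb at the promoter held in every alternative run, and Fosb and Junb lost their calls where stated above. Member promoters called numbered 6 with a replicate block (beside 10.5% of all promoters), 4 with DESeq2 (6.4%), 6 with total cut sites (40.9%), 8 with factors from 10 kb bins (59.0%), 1 without cluster 7 (4.28%), 0 in cluster 3 (0.0291%) and 0 in the upstream 1 kb (2.97%), against 2 (3.92%), and from 1 to 3 with a library left out (0.568% to 7.75%). Total cut sites and bin factors moved the median of all promoters by a log2 of −0.28 and −0.53; relative to that shift Fosb stood at −0.51 and −0.52, Junb at −0.39 and −0.40 and Fosl1 at 0.10 and 0.095. Called starts numbered 9 with the block (beside 11.7% of all starts), against 5 (5.73%), and 1 to 5 with a library left out (1.13% to 7.89%). Called loci numbered 7 with the block (beside 21.6% of all loci) and 9 with bin factors (45.7%), against 4 (11.3%), and 0 to 5 with a library left out (0.0% to 26.5%), with 0 as named above. Against 35 lower tiles (1.17% of all tiles), the block gave 64 (1.92%), total cut sites 54 (1.66%) and bin factors 93 (3.3%). They numbered 23 in barcodes with at least 20% of cut sites in tested tiles (0.832%). Clusters 1, 2, 3 and 7 gave 60 (1.75%) and cluster 3 gave 7 (0.0341%). With a library left out the lower tiles numbered 2 to 38 (0.114% to 1.66%). Against 25 higher tiles (3.66% of all tiles), bin factors gave 11 (2.45%) and cluster 3 gave 1 (0.205%). With a library left out they numbered 8 to 44 (0.809% to 6.69%). Of the 25, 9 lay within 20 kb of a member gene. With touching tiles joined into regions, 13 regions rose and 6 fell, beside 5.14% and 0.957% of all 199423 regions, so these counts have another unit. The causes were not tested. The difference in TGANTCA share ran from 2.95 to 4.27 percentage points with a library left out.

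Whether replicate numbers pair the libraries depends on which promoters are used. Over all 17163 tested promoters, deviations of same-numbered libraries correlated at 0.04, 0.156 and 0.187, with 5 of 6 libraries most like their own number, so the first pair missed 0.1 and the numbers were not taken as pairing, though ages match by number. With a mean count of at least 50 the values were 0.142, 0.403 and 0.343. Floors of 10, 50, 100, 200 and 500 were tried, after the calls with the block had been seen; all 3 pairs passed 0.1 from 50 upward, for tiles too, and all 6 libraries were then most like their own number over promoters. Whether the libraries are paired is therefore not settled, and for promoters, starts and loci the calls with the block are given beside the main ones. Cluster 3, cluster 7, shared barcodes, the 1 kb sides of the window and the gene body were alternatives chosen after seeing the data.

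The log2 changes below changed sign. Fosl1 was −0.18 with total cut sites, −0.44 with bin factors, −0.015 upstream and −0.054 over the gene body. Batf was 0.032 with the block, 0.34 without cluster 7, 0.81 in cluster 3, 0.18 in the 500 bp window and −0.46 to 0.62 with a library left out. Batf3 was 0.076 in cluster 3, 0.57 upstream and −0.26 to 0.018 with a library left out, and Atf3 was −0.28 upstream and −0.011 over the gene body. In cluster 3, Fosl2 was 0.006 and Jun 0.001. Among starts with a library left out, Fosl1 ran from −0.049 to 0.14 and Batf from −0.53 to 0.54. Whole loci gave −0.22 to 0.023 for Atf3 with a library left out and −0.13 for Batf3 with bin factors. The most open Jun tile was 0.008 in barcodes with at least 20% of cut sites in tested tiles, 0.40 in cluster 3 and −0.31 to 0.089 with a library left out. Tiles in cluster 3 were 0.58 at Fosl2, 0.01 at Jund, 0.27 at Batf and 0.013 at Batf3.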
